A study of Mus musculus with 9 samples.

Results

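Whole ear skin of mice treated with imiquimod cream was set against whole ear skin of vehicle mice across 19938 genes. Probe sets with exactly 1 gene symbol were taken, and where a gene had several the brightest over all 9 arrays was kept, so the comparison covered all 19938 genes tested in the series and 6 of its 9 arrays. The series held 3 arrays each for imiquimod, vehicle and anisomycin. All mice were female, of the C57BL/6 strain and 7 to 9 weeks old, and the labels name no mutant allele. The imiquimod group received 10 mg of a 5% cream on both sides of the ear every day for 5 days. The anisomycin group received 10 µl per side of a solution of 2 mg/ml in ethanol once a day, for 5 days by the design text. What the vehicle was and how long it was given are not in the labels, so the cream base, the handling of the ear and imiquimod itself cannot be told apart. Values are log2 expression values from Affymetrix Mouse Gene ST arrays. A difference is the mean of 3 imiquimod arrays minus the mean of 3 vehicle arrays, so that a difference of 1 is 2-fold. Errors are standard errors (SE) from limma, a linear model that shares information on the spread between arrays across genes. A gene was called higher or lower where its two-sided limma p, adjusted over all genes by the Benjamini-Hochberg method, was under 0.05. The labels number the samples without saying that they came from separate mice, so p-values measure the spread between these samples, which may be technical. The RNA came from whole tissue, in which fewer cells of a type and less RNA per cell cannot be told apart.

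Imiquimod is a small-molecule agonist of Toll-like receptor 7 (TLR7), an endosomal sensor of single-stranded RNA that signals through MyD88 to NF-kB and to interferon regulatory factors. Its cream is widely used on mouse skin to produce a psoriasis-like dermatitis, in which IL-23 sustains IL-17-producing T cells and IL-17 acts on keratinocytes together with IL-22 and IL-36. The keratinocytes then divide faster, switch to stress keratins, make antimicrobial proteins and release chemokines that draw in neutrophils.

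The label of whole ear skin held against its markers. Vehicle values were 12.73, 12.53 and 12.59 for the basal keratin Krt5 and 11.90, 12.35 and 11.81 for the dermal collagen Col1a1. Tissues below the skin were present too, with vehicle values of 10.90, 11.42 and 10.72 for the muscle actin Acta1, 8.03, 8.13 and 7.47 for the fat hormone Adipoq, and 8.92, 9.51 and 9.25 for the cartilage proteoglycan Acan. The first principal component separated the groups and carried 89.9% of the variance of the 6 arrays. Correlations taken over genes (not replicates of one another) were 0.997 to 0.998 within imiquimod, 0.993 to 0.996 within vehicle and 0.943 to 0.960 between them. Some arrays stood apart in named groups of genes. Vehicle array 2 was the highest of its group in 28 of 28 muscle genes and 15 of 17 adipocyte genes, and the lowest in 26 of 31 mitosis genes, 21 of 23 barrier lipid genes and 18 of 22 cornified envelope genes, where it was lowest in 38.1% of all genes. Imiquimod array 3 was the highest of its group in 31 of 31 interferon-stimulated genes, against 33.7% of all genes. Imiquimod array 2 was the lowest in 23 of 25 immediate early genes, against 34.5% of all genes. Results on these groups are given with and without the array concerned, and what set the arrays apart was not tested.

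Imiquimod ears differed from vehicle ears in 8519 of 19938 genes, 42.7% of those tested, with 4062 higher (20.4%) and 4457 lower (22.4%). Most of these differences were small, and 51.5% of the called genes moved by under 0.5 on the log2 scale. The large ones lay on the side of rises. At least 2-fold, 850 genes rose and 519 fell. At a difference of 3 or more, 82 genes rose and 3 fell, and of the 43 genes that moved by 4 or more all rose. In 6444 genes, 32.3% of those tested, the 95% interval of the difference lay within 0.25 of no difference. The share of higher genes among those called was 47.7%, and it fell to 36.4% when arrays were centred on 1000 genes of stable rank, and rose to 54.7% when they were centred on their medians. The 3 and 3 arrays did not overlap in 10326 genes, 51.8% of those tested.

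**Figure D1:**
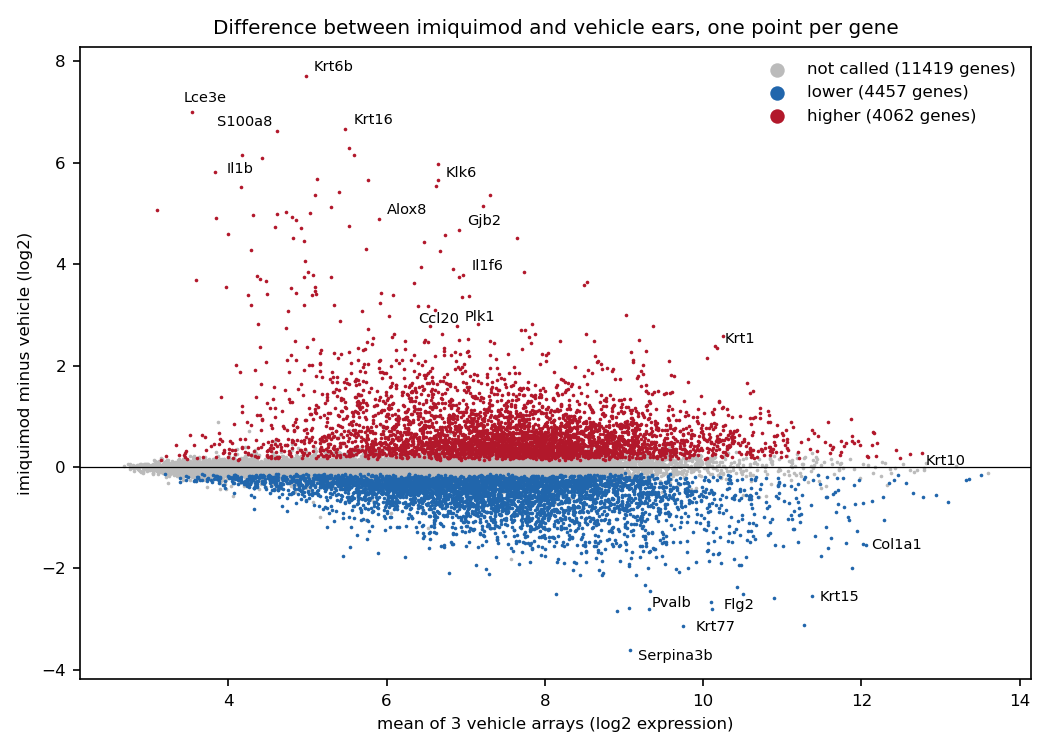
Log2 difference of imiquimod minus vehicle (vertical axis) against the mean log2 expression of the 3 vehicle arrays (horizontal axis), with 1 point per gene, red for the 4062 genes called higher, blue for the 4457 called lower and grey for the rest. The points beyond a difference of 4 all lie above 0, and Serpina3b is the lowest point.

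Keratinocyte and neutrophil genes made up the largest rises. Krt6b, a keratin that interfollicular epidermis makes when wounded or hyperproliferating, read 12.68, 12.74 and 12.66 on the imiquimod arrays and 5.66, 4.66 and 4.63 on the vehicle arrays. Its difference of 7.71 (SE 0.23) is 209.7-fold, with an adjusted p of 3.24e-08 from limma. S100a8, a calprotectin subunit made by neutrophils and by inflamed keratinocytes, read 11.33, 11.20 and 11.18 against 4.48, 4.50 and 4.86, a rise of 6.62 (SE 0.12). Il1b, the secreted cytokine that the inflammasome matures, read 10.55, 10.15 and 10.87 against 4.42, 4.52 and 4.34, a rise of 6.10 (SE 0.19). In each of these genes the lowest imiquimod array lay more than 5 log2 units above the highest vehicle array. The other 12 of the 15 largest rises were Lce3e (6.99), Krt16 (6.67), S100a9 (6.29), Stfa3 (6.15), Sprr2e (6.15), Defb4 (5.81), Lce3a (5.68), Defb3 (5.66), Klk6 (5.66), Sprr2d (5.54), Sprr2b (5.53) and Klk13 (5.41). Vehicle means of Lce3e and Defb4 lay below 3.98, the level under which the dimmest 10% of genes fall, so their rises may be understated. Near-identical copies in the Sprr2, Lce3 and Stfa families can share probe signal, and the values of their single members are uncertain.

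Falls were smaller than the largest rises. Serpina3b, a serine protease inhibitor, read 4.77, 5.73 and 5.88 against 9.34, 8.51 and 9.38, a fall by 3.61 (SE 0.31, adjusted p = 1.85e-05), the largest of any called gene. Krt77, a keratin of sweat duct and of suprabasal mouse epidermis, read 6.60, 6.63 and 6.61 against 10.06, 9.94 and 9.25, so it dropped by 3.14. Paqr7, a membrane progestin receptor, read 6.45, 6.55 and 6.55 against 9.48, 9.24 and 9.21, a fall by 2.79 (SE 0.14). Bbox1, the last enzyme of carnitine synthesis, fell by 2.77. Angptl7, an angiopoietin-like secreted protein, fell by 2.59, the carboxylesterase Ces1d by 2.51 and the semaphorin Sema3d by 2.44. All 6 arrays of each of these genes separated by group. The rest of the 15 largest falls, Krt24, Cyp2g1, Flg2, Pvalb, Krt15, Alox12e, Myh4 and Casq1, are described with their groups.

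**Figure D2:**
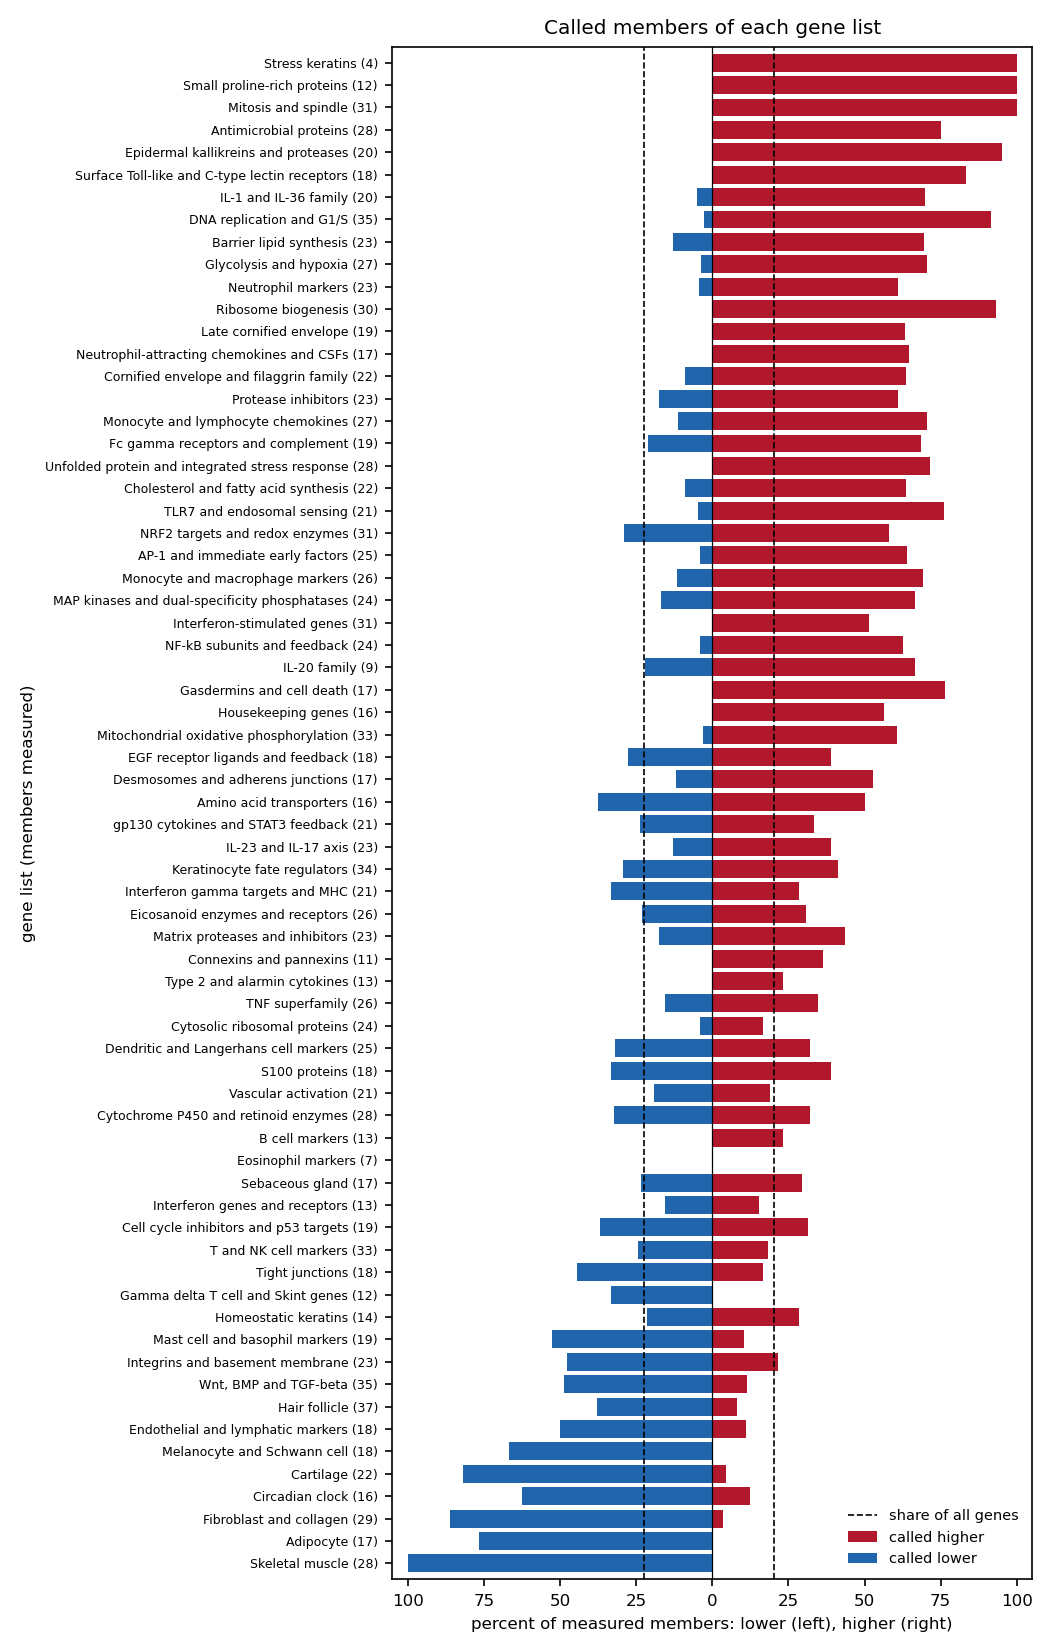
Percent of the measured members of each gene list (vertical axis, with the number measured in parentheses) called lower, to the left, and called higher, to the right (horizontal axis), with dashed lines at the shares of all genes, 22.4% lower and 20.4% higher. Lists are in order of their median difference, from stress keratins (5.90) and small proline-rich proteins (4.84) at the top to skeletal muscle (-1.78) at the bottom.

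Genes that sense microbial products rose, with TLR7 itself as an exception. Among 21 measured genes of TLR7 and endosomal sensing, 16 were called higher and 1 lower, with a median difference of 0.56. Tlr7 read 5.31, 5.32 and 5.43 on the imiquimod arrays and 5.28, 5.03 and 5.25 on the vehicle arrays. That difference of 0.16 was not called (adjusted p = 0.216), although the arrays did not overlap. Tlr13, an endosomal sensor of bacterial ribosomal RNA, read 7.44, 7.60 and 7.74 against 5.16, 4.82 and 5.22 and rose by 2.53 (SE 0.15). Tlr8 rose by 0.98 (SE 0.12), and Tlr9, the sensor of CpG DNA, by 0.60. The shared adaptor Myd88 read 10.30, 10.22 and 10.25 against 9.11, 8.87 and 8.83, a rise of 1.32. The chaperones that bring endosomal receptors to their place rose as well, Unc93b1 by 0.82 and Hsp90b1 (gp96) by 0.94. Slc15a3, an endolysosomal peptide transporter, rose by 2.33. Tlr3, the receptor for double-stranded RNA, was the called fall, at -0.19.

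Surface receptors of myeloid cells moved further than the endosomal ones. Of 18 measured, 15 were higher, with a median of 1.52. Clec4e (Mincle), a receptor for glycolipids, read 8.52, 8.27 and 8.88 against 4.42, 4.12 and 4.32, a rise of 4.27 (SE 0.20). Trem1, an amplifier of neutrophil and monocyte responses, read 8.43, 8.30 and 9.03 against 4.04, 4.06 and 3.88, and rose by 4.59. Clec4d rose by 3.71, the beta-glucan receptor Clec7a (Dectin-1) by 3.38, the LPS co-receptor Cd14 by 2.46 and Clec4n (Dectin-2) by 2.09. Tlr4 was not called, at 0.35. Trem1 lies in a run of 4 neighbouring genes on chromosome 17, A530064D06Rik, Trem1, Trem3 and Treml4, that were each called and at least 2-fold higher (1.27 to 4.59).

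NF-kB genes showed feedback regulators above subunits in size of change. Of 24 measured genes, 15 were higher and 1 lower, with a median of 0.45. Bcl3, an atypical IkB protein, read 9.74, 9.42 and 9.52 against 6.80, 7.28 and 7.02, and rose by 2.53 (SE 0.12). Zc3h12a (Regnase-1), an RNase that degrades inflammatory transcripts, read 9.37, 9.20 and 9.24 against 7.30, 7.46 and 7.16, and rose by 1.96. Nfkbiz (IkB-zeta), a coactivator of IL-17 target genes in keratinocytes, read 9.25, 9.08 and 9.38 against 7.93, 7.91 and 7.79, a rise of 1.36. Nfkbid rose by 1.21 and Nfkbia by 0.85. The subunits rose less, Rela by 0.46, Rel by 0.44 and Nfkb2 by 0.32, and Relb at 0.10 was not called. Card14, a keratinocyte scaffold mutated in familial psoriasis, differed by 0.18 with overlapping arrays and was not called.

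Interferon-stimulated genes rose to an extent that depended on 1 array. Of 31 measured, 16 were called higher, with a median of 0.45. Averaged over the list, the imiquimod arrays lay 0.45, 0.41 and 1.15 above the vehicle mean, array 3 being the high one. Ifit1, which binds viral RNA caps, read 6.35, 6.10 and 7.62 against 5.37, 5.32 and 5.05, a rise of 1.45 (SE 0.33, adjusted p = 0.00594). Trim30a read 7.42, 7.29 and 8.08 against 5.72, 5.75 and 5.70, a rise of 1.87 (SE 0.21). Irf7, the factor that drives interferon production in plasmacytoid dendritic cells, read 7.43, 7.21 and 8.45 against 5.98, 5.80 and 6.05, a rise of 1.75. Rtp4 rose by 1.77, Oasl2 by 1.64, Oas2 by 1.36 and the nucleic acid sensor Zbp1 by 1.22. Without imiquimod array 3, 12 members were higher and 1, Ifit2 at -0.22, was lower, the median was 0.20, and Ifit1 (0.98), Irf7 (1.38), Oasl2 (1.29), Rtp4 (1.41), Trim30a (1.63) and Zbp1 (0.96) were still called. Rsad2 (viperin) read 5.79, 5.89 and 7.11 against 5.74, 5.58 and 5.26, and with all arrays it was not called (adjusted p = 0.0835). Usp18 read 6.40, 6.21 and 7.67 against 5.97, 5.79 and 6.05 and was not called either (adjusted p = 0.0649).

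**Figure D3:**
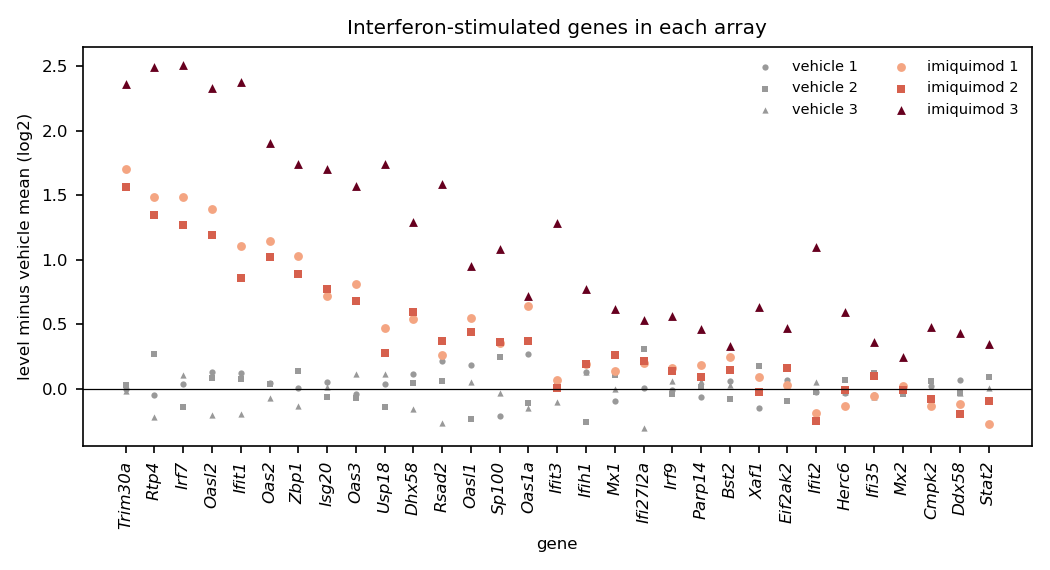
Log2 expression minus the vehicle mean (vertical axis) of each of 31 interferon-stimulated genes (horizontal axis), with 1 symbol per array for 3 imiquimod arrays in warm colours and 3 vehicle arrays in grey. Imiquimod array 3 is the highest of its group in every one of these genes, and on the right of the plot the other imiquimod arrays lie near or below 0.

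The interferon genes themselves moved little. Ifnb1 read 4.52, 4.52 and 4.48 against 4.53, 4.44 and 4.52, a difference of 0.01, and Ifng 4.98, 4.79 and 5.03 against 4.98, 4.98 and 4.85. Neither was called. Of 13 interferon genes and receptors, 2 were higher (4 without anisomycin array 3) and 2 lower, which is 30.8% called against 42.7% of all genes. The lower ones were Ifnlr1 and the interferon gene Ifna2. The call of Ifna2 was lost in 12 of the 19 alternative settings that tested it. Ifngr2, a subunit of the interferon-gamma receptor, rose by 0.58 and Ifngr1 by 0.32, and the lambda receptor subunit Ifnlr1 fell by 0.30. Among 21 interferon-gamma targets and MHC genes, 6 were higher and 7 lower, and 6 of the 7 falls were in the MHC class II pathway. The other was the class I loading factor Tapbp (-0.21). H2-Ab1 read 10.02, 10.03 and 10.26 against 11.28, 10.92 and 11.19, a fall by 1.03 (SE 0.13). H2-Aa fell by 0.95, H2-Eb1 by 0.89, the invariant chain Cd74 by 0.87, the peptide exchange factor subunit H2-DMa by 0.36 and the class II transactivator Ciita by 0.19. The immunoproteasome subunit Psmb10 rose by 0.53. Irf1, counted as higher, rose by 0.41 on the probe set kept. Its other probe set differed by -0.42, and the 2 were called in opposite directions when all probe sets with 1 symbol were fitted. Imiquimod array 3 was the highest of its group in 18 of these 21 genes. The list mean minus the vehicle mean was -0.14, -0.14 and 0.14 on the imiquimod arrays, so that array 3 had the opposite sign. Without it 4 genes were higher and 6 lower. Leaving out imiquimod array 1 or vehicle array 1 left 4 lower calls, and leaving out vehicle array 1 or 3 left 3 higher ones. Calls of Ifngr1 and Ifnlr1 were lost without any 1 of the imiquimod arrays, without vehicle array 1, and without vehicle array 2 (Ifngr1) or 3 (Ifnlr1). Both were also lost after cyclic loess. That of Ifngr1 was lost too after a repeat of quantile normalization and in a fit of the imiquimod and vehicle arrays alone.

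The RefSeq promoter of 22 of the 31 interferon-stimulated genes was in the sequence table (build GRCm38.p6). The interferon response motif GAAANNGAA, searched on both strands in the 250 bases before the start, was present in 9 of them (40.9%), among them 5 of the 11 called higher (45.5%). It was present in 7.99% of the promoters of all 15614 tested genes with an entry. Shown are 4 promoters of called genes that hold the motif, taken by the size of their difference. They are written 5′ to 3′ on the gene's strand, with the motif in capitals. They come from chr7:104465194-104465258 (Trim30a, minus strand), chr19:34640775-34640843 (Ifit1, plus strand), chr5:120777690-120777758 (Oas3, minus strand) and chr5:120907526-120907569 (Oas1a, minus strand).
Trim30a: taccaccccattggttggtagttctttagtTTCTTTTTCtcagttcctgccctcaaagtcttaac
Ifit1: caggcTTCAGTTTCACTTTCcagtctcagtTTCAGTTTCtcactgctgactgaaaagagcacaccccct
Oas3: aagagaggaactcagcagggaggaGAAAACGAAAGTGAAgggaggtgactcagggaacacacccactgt
Oas1a: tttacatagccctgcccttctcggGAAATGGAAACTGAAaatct
The copies shown for Trim30a and Ifit1 lie on the opposite strand, so their reverse complement is read here, and Ifit1, Oas3 and Oas1a hold overlapping or repeated copies. Oas3, a synthetase of the RNase L pathway, rose by 1.02 and Oas1a by 0.58. A match describes these letters only.

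In the IL-23 and IL-17 axis, of 23 measured members, 9 were higher and 3 lower, with a median of 0.17. Il17f read 6.54, 6.36 and 6.25 against 5.56, 5.53 and 5.58, a rise of 0.83 (SE 0.07, adjusted p = 2.32e-05). Il17a read 5.25, 5.24 and 5.21 against 5.24, 5.24 and 5.10, a difference of 0.04 that was not called. Il17c, which keratinocytes themselves make, read 6.57, 6.07 and 6.18 against 5.81, 5.58 and 5.53, a rise of 0.63, and Il17d fell by 0.56. Il23a, the p19 subunit of IL-23, read 6.13, 5.84 and 6.13 against 5.53, 5.46 and 5.55, a rise of 0.52 (SE 0.16, adjusted p = 0.0227) that lost its call without imiquimod array 1, without imiquimod array 3 or without any 1 of the vehicle arrays. Il12b, the p40 subunit that IL-23 shares with IL-12, read 5.53, 5.13 and 5.34 against 4.86, 4.86 and 4.74, a rise of 0.52. The receptors moved apart. Il17ra rose by 0.73 and Il17rc by 0.70, the subunits through which IL-17A and IL-17F signal, and Il17rb, which binds IL-25, fell by 0.88. Il23r (0.07) and Ccr6 (0.01), which mark IL-17-producing T cells, were not called. Ccl20, the ligand of CCR6, read 9.49, 8.68 and 9.80 against 6.77, 6.38 and 6.94, and rose by 2.63 (SE 0.29). Il22 and the gamma-delta T cell receptor gene Trdc were not analysed here.

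IL-20 cytokines act on keratinocytes through receptors that share subunits. Of 9 measured genes in this list, which also holds IL-10 and its receptor genes, 6 were higher and 2 lower. The higher ones were Il19, Il20, Il24, Il10, Il10ra and Il10rb. Il19 read 7.24, 7.13 and 7.18 against 5.29, 5.18 and 4.99, and rose by 2.03 (SE 0.08). Il24 read 6.90 on each imiquimod array against 5.44, 5.48 and 5.15, a rise of 1.54. Il20 read 4.94, 4.65 and 5.07 against 4.41, 4.45 and 4.47, a rise of 0.45. The receptor subunits Il20ra and Il20rb fell, and Il22ra1, which pairs with Il20rb, was not called (0.17). Il20ra read 6.54, 6.96 and 7.10 against 8.83, 8.27 and 9.06 and fell by 1.85 (SE 0.20), and Il20rb fell by 0.54, a call that was lost without imiquimod array 1, vehicle array 1 or vehicle array 3. Il10ra, the leukocyte receptor of IL-10, rose by 0.96.

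**Figure D4:**
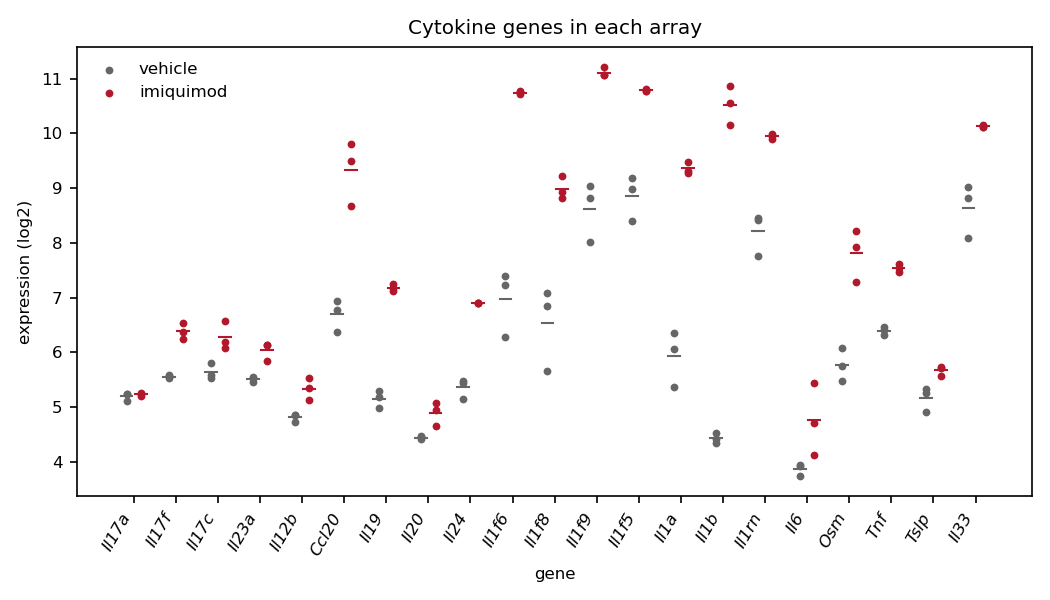
Log2 expression (vertical axis) of cytokine genes (horizontal axis), with 1 point per array, red for imiquimod and grey for vehicle, and a bar at the mean of 3 arrays. Il1b, Il1f6 and Ccl20 stand far above their vehicle points, the Il17a points overlap, and the imiquimod points of Il6 are spread widely.

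The IL-1 and IL-36 family rose broadly, with 14 of 20 members higher, 1 lower and a median of 1.33. Il1f6 (IL-36 alpha) read 10.71, 10.78 and 10.75 against 7.39, 6.28 and 7.24, and rose by 3.78 (SE 0.25), which is 13.7-fold. Il1f9 (IL-36 gamma) read 11.20, 11.06 and 11.07 against 9.03, 8.01 and 8.82, a rise of 2.49. Il1f8 (IL-36 beta) rose by 2.46, and the antagonist Il1f5 (IL-36Ra) by 1.93. Vehicle array 2 was the lowest for these 4 genes, which stayed called without it. They form a run of 4 neighbours on chromosome 2, each called and at least 2-fold higher. Il1a read 9.32, 9.28 and 9.48 against 6.36, 5.37 and 6.05, a rise of 3.43. The alarmin Il33 read 10.12, 10.16 and 10.12 against 8.83, 8.08 and 9.02, a rise of 1.49. The IL-1 receptor antagonist Il1rn rose by 1.74 and the IL-36 receptor Il1rl2 by 0.54. Nlrp3, the sensor of an inflammasome, rose by 2.06, Casp4 (caspase-11) by 1.17 and Casp1 by 0.32. Il18 was not called, at 0.35, while its receptor subunit Il18rap rose by 1.88.

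Cytokines of the gp130 group split. Of 21 genes, 7 were higher and 5 lower. Osm (oncostatin M), a product of neutrophils and macrophages, read 7.92, 7.28 and 8.21 against 5.76, 5.48 and 6.07, a rise of 2.04. Its receptor subunit Osmr rose by 1.22, the LIF receptor Lifr fell by 0.87 and the IL-6 receptor Il6ra fell by 0.57. Il6 read 5.45, 4.13 and 4.71 against 3.75, 3.94 and 3.93. Its arrays did not overlap, but the spread within imiquimod left the difference of 0.89 uncalled (SE 0.39, adjusted p = 0.0988). It was called without imiquimod array 2. Stat3, the transcription factor downstream of these receptors, rose by 0.83 and its feedback inhibitor Socs3 by 1.78. A second probe set of Socs3 differed by only 0.14.

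Among type 2 and alarmin cytokines and their receptors the list mean lay between 6.28 and 6.31 on the imiquimod arrays and between 5.90 and 5.99 on the vehicle arrays. Il4 (0.05), Il5 (-0.09), Il13 (0.07) and Tslp (0.51) were not called, and of 13 genes 3 were higher (23.1%, near the 20.4% of all genes). These were Il4ra, the shared receptor chain of IL-4 and IL-13, which read 9.97, 10.03 and 9.95 against 8.29, 8.34 and 8.40 (a rise of 1.64), Il13ra1 (0.62) and Il33. In the TNF superfamily 9 of 26 genes were higher and 4 lower, which is 50% called against 42.7% of all genes. Tnf read 7.62, 7.47 and 7.53 against 6.31, 6.41 and 6.46, a rise of 1.15 (SE 0.06). Its receptors rose too, Tnfrsf1b by 1.63 and Tnfrsf1a by 0.82. The number of higher calls in this list was 5 without imiquimod array 2 and 4 without imiquimod array 3, and of lower calls 2 without imiquimod array 2.

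Neutrophil chemoattractants and their receptors rose with neutrophil markers. Of 17 chemokines, growth factors and receptors of this group, 11 were higher, with a median of 0.82. Cxcl2 read 9.94, 9.61 and 10.56 against 4.85, 4.92 and 5.34, a rise of 5.00 (SE 0.26) or 32.0-fold. Cxcl5 read 7.41, 7.35 and 7.64 against 4.37, 4.18 and 4.29, a rise of 3.18, and Cxcl3 rose by 1.56. Cxcl1 read 8.20, 7.49 and 7.92 against 7.13, 7.29 and 6.74, a rise of 0.82 (adjusted p = 0.0182) that was lost without imiquimod array 1, imiquimod array 3 or vehicle array 3. Csf3 (G-CSF) at 0.08 was not called, while its receptor Csf3r, carried by neutrophils, read 8.99, 8.96 and 9.15 against 5.31, 4.83 and 4.78, a rise of 4.06. Cxcr2, the receptor for CXCL1, CXCL2 and CXCL5, read 9.57, 9.62 and 9.69 against 4.92, 4.84 and 5.01, a rise of 4.71 (26.1-fold).

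Among 23 neutrophil markers 14 were higher and 1 lower, with a median of 0.97. The list mean lay between 7.21 and 7.37 on the imiquimod arrays and between 5.42 and 5.46 on the vehicle arrays. Ly6g, the surface protein that defines mouse neutrophils, read 6.59, 6.54 and 6.53 against 4.93, 4.89 and 4.92, a rise of 1.64. The integrin Itgam (CD11b) rose by 2.98, the resistin-like Retnlg by 2.25, the collagenase Mmp8 by 1.92 and the Fc receptor Fcgr4 by 2.21. Granule genes of immature neutrophils differed among themselves. Ngp rose by 0.34 and Ctsg fell by 0.32, and Mpo (0.03), Elane (-0.03), Prtn3 (-0.01), Camp (-0.06) and Ltf (0.05) were not called. Hdc, the histamine-forming enzyme of mast cells and of activated neutrophils, read 9.55, 9.43 and 10.11 against 6.33, 6.91 and 6.58, a rise of 3.09. Mast cell genes went the other way, with 10 of 19 lower and 2 higher. Kit, the stem cell factor receptor, fell by 0.84, the mast cell receptor Mrgprb2 by 0.91 and the tryptase Tpsb2 by 0.53.

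Monocyte and lymphocyte chemokines were higher in 19 of 27 cases and lower in 3, with a median of 0.68. Ccl3 read 10.22, 10.16 and 10.87 against 5.79, 5.12 and 4.98, a rise of 5.12 (34.8-fold). The monocyte attractants Ccl2 and Ccl7 rose by 2.05 and 2.28. Cxcl13, a B cell attractant, read 6.07, 6.14 and 5.86 against 4.08, 4.32 and 4.06, a rise of 1.87. Of the interferon-inducible ligands of CXCR3, Cxcl10 rose by 1.14 and Cxcl9 by 0.54, and Cxcl11 (-0.16) was not called. In step with these, 18 of 26 monocyte and macrophage markers were higher and 3 lower. Ccr2, the receptor of inflammatory monocytes, read 7.66, 8.10 and 7.83 against 6.15, 5.60 and 5.98, a rise of 1.95, and the scavenger receptor Msr1 rose by 1.77, Adgre1 by 1.56 and Fcgr1 (CD64) by 1.61. The falls were those of Retnla, at 3.61, 3.71 and 3.78 against 5.37, 5.84 and 5.15 (a difference of -1.75), the efferocytosis receptor Mertk (-1.34) and the transcription factor Maf (-0.43). Fc receptors and complement genes followed the myeloid pattern, with 13 of 19 higher and 4 lower. C5ar1 and C3ar1, the receptors of the complement anaphylatoxins, rose by 1.70 and 1.42, and the complement inhibitors Cd59a and Cd55 fell by 1.53 and 1.13.

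Of 25 dendritic and Langerhans cell markers, 8 were higher and 8 lower, and the ranges of the list mean overlapped between groups. Mgl2 (CD301b), carried by dermal dendritic cells, read 5.88, 5.92 and 6.03 against 7.77, 7.80 and 7.85, a fall by 1.87. Cd209a fell by 1.22, and langerin, Cd207, read 5.05, 4.96 and 5.06 against 5.68, 5.24 and 5.48, a fall by 0.44. Genes of migrating, mature dendritic cells rose, the actin bundler Fscn1 by 1.62, the homing receptor Ccr7 by 0.84 and Ccl22 by 0.81. Of 33 T and NK cell markers, 6 were higher and 8 lower, which is 42.4% called against 42.7% of all genes, and the list means of the groups overlapped. Cd3g read 5.87, 5.95 and 6.34 against 7.53, 6.42 and 7.41, a fall by 1.07, and Cd3e fell by 0.41, while the granzymes Gzmb and Gzma rose by 0.51 and 0.40. The 8 lower calls became 4 without imiquimod array 1 or vehicle array 1 and 5 without imiquimod array 2 or vehicle array 3, and the call of Cd3e was lost without any of these 4 arrays. Of 12 measured gamma-delta T cell and Skint genes 4 were lower, all of the Skint family, which is 33.3% called against 42.7% of all genes. They were Skint9 (-1.75), Skint4 (-1.59), Skint10 (-0.73) and Skint7 (-0.64). The call of Skint10 was lost without any 1 of the imiquimod arrays, without vehicle array 1 or without anisomycin array 2. It was also lost after cyclic loess, with a replicate block and in a fit of all rows. Of 13 B cell markers 3 were higher (23.1%, near the 20.4% of all genes). They were Sdc1 (0.98), which keratinocytes also make, Blnk (0.79) and Xbp1 (0.36), and Ms4a1 (0.00), Cd79a (0.00) and Pax5 (-0.08) were not called. The call of Xbp1 was lost after cyclic loess and after a repeat of quantile normalization. No eosinophil marker was called by limma in 7 measured, and 0 of 7 had an unadjusted p under 0.05.

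All 4 stress keratins were higher, with a median of 5.90. Krt16 read 12.21, 12.18 and 12.05 against 5.30, 5.72 and 5.42, a rise of 6.67 (SE 0.10). Krt6a read 12.43, 12.32 and 12.33 against 6.92, 7.29 and 7.46, a rise of 5.14, and Krt17 rose by 2.14. Among 14 homeostatic keratins 4 were higher and 3 lower (2 and 7 after cyclic loess), which is 50% called against 42.7% of all genes. Of the suprabasal pair, Krt1 read 12.55, 12.54 and 12.47 against 10.46, 9.74 and 10.32, a rise of 2.34, while its partner Krt10 read 12.64, 12.64 and 12.66 against 12.84, 12.60 and 12.68, a difference of -0.06 that was not called, except after cyclic loess (-0.48, adjusted p = 0.0182 from limma). The basal keratins Krt14 and Krt5 rose by 0.67 and 0.25. Krt15, a marker of basal and follicle stem cells, read 8.52, 8.99 and 9.01 against 11.51, 11.29 and 11.32, a fall by 2.54 (SE 0.21). Krt24 read 7.15, 8.23 and 9.10 against 11.56, 10.62 and 11.63, a fall by 3.11 whose SE of 0.49 reflects the spread of its imiquimod arrays.

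The epidermal differentiation complex on chromosome 3 gathers genes of the cornified envelope. Of its 62 measured genes between S100a1 and S100a10, 38 were higher, 6 lower and 18 not called, so that 71.0% were called. Of these, 25 were at least 2-fold higher and 1, Flg2, at least 2-fold lower, and 14 rose by 4 or more. The rises lay in blocks along the chromosome. The Sprr2 genes from Sprr2b to Sprr2j-ps formed a run of 8 neighbours that rose by 3.47 to 6.15, and the 5 Lce3 genes a run that rose by 2.00 to 6.99. S100a7a, S100a8, S100a9, Pglyrp4 and Pglyrp3 formed another run, with rises of 2.11 to 6.62. Between the blocks the Lce1 genes moved less. Lce1a1 (-0.04), Lce1b (0.10) and Lce1l (-0.20) were not called, and the largest rise among them was that of Lce1i, 1.00. Loricrin, Lor, the most abundant envelope protein of resting epidermis, read 11.93, 11.89 and 12.07 against 12.52, 12.18 and 12.27. Its difference of -0.36 was not called, though the arrays did not overlap, and it was called after cyclic loess and in a fit of the imiquimod and vehicle arrays alone. Flg2, a filaggrin relative of the granular layer, read 6.52, 7.45 and 7.96 against 10.36, 9.84 and 10.13, a fall by 2.80. Rptn (repetin), another of the fused S100 proteins, read 9.63, 9.70 and 9.47 against 4.60, 4.29 and 4.94, a rise of 4.99, and Hrnr (hornerin) rose by 0.94.

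**Figure D5:**
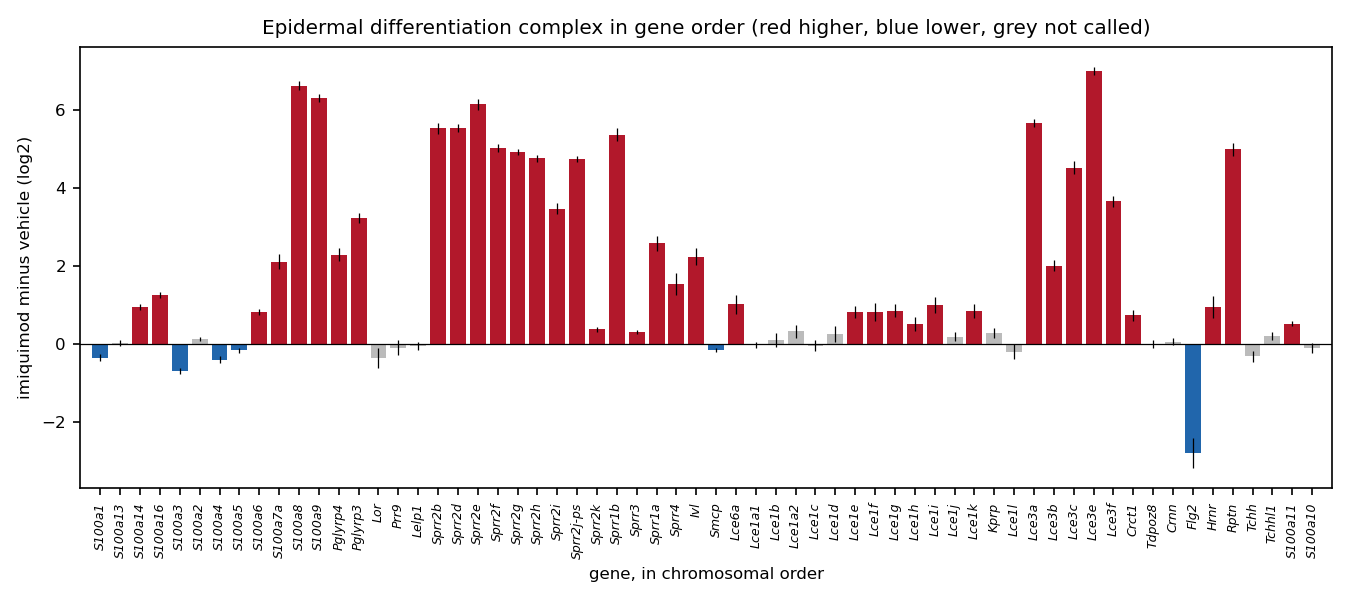
Log2 difference of imiquimod minus vehicle (vertical axis) for the 62 measured genes of the epidermal differentiation complex in their order along chromosome 3 (horizontal axis), as bars coloured by call with lines of 1 SE to each side. The Sprr2 and Lce3 blocks and the S100a8 and S100a9 pair rise above the rest, the Lce1 genes lie between -0.20 and 1.00, and Flg2 is the lone bar below -2.

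All 12 measured small proline-rich protein genes, which encode cross-linked bridges of the envelope, were higher, with a median of 4.84. Sprr2e read 11.80, 11.69 and 11.71 against 5.90, 5.58 and 5.28, and Sprr1b 12.71, 12.66 and 12.62 against 7.44, 6.83 and 7.63, a rise of 5.36. Sprr2b read 9.97, 9.71 and 9.37 against 4.17, 4.02 and 4.30. Sprr2k (0.37) and Sprr3 (0.31) rose least. The AP-1 motif TGANTCA, on either strand in the 250 bases before the start, was present in 9 of 11 Sprr promoters in the RefSeq table (81.8%) and in 7.12% of all 15614. The 5 promoters of the largest rises with a motif are shown so that their likeness can be read, with the motif in capitals. They lie in GRCm38.p6 at chr3:92351920-92351986 (Sprr2e, plus strand), chr3:92338917-92338983 (Sprr2d, plus), chr3:92316480-92316546 (Sprr2b, plus), chr3:92438854-92438920 (Sprr1b, minus) and chr3:92364960-92365026 (Sprr2f, plus).
Sprr2e: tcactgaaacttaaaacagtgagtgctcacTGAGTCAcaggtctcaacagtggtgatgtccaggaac
Sprr2d: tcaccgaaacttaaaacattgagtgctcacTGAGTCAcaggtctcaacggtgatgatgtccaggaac
Sprr2b: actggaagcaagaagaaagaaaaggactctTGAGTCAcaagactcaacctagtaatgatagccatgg
Sprr1b: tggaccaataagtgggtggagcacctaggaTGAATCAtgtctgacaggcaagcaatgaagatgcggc
Sprr2f: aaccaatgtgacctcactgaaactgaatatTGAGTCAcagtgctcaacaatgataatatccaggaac
Windows of Sprr2e and Sprr2d are near-identical over their length and do not count as separate cases. Those of Sprr2f and Sprr2b share shorter stretches with them after the motif. The 9 of 11 is therefore not a count of separate cases to set against the share of all promoters.

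Of 22 genes of the cornified envelope and filaggrin family, 14 were higher and 2 lower (13 and 2 without vehicle array 2). The complex holds 8 of them, and of the 14 that lie elsewhere 11 were higher and 1 lower. Ivl (involucrin), inside the complex, read 10.22, 10.27 and 10.36 against 8.53, 7.50 and 8.09, a rise of 2.24. The transglutaminases that cross-link the envelope rose, Tgm3 by 2.49, Tgm1 by 1.94 and Tgm5 by 1.12, as did Cnfn (cornifelin) by 2.39 and the protease Casp14 by 2.69. In barrier lipid synthesis 16 of 23 genes were higher and 3 lower, with a median of 1.06 (16 and 4 without vehicle array 2). Degs2, which makes phytoceramides, read 10.34, 10.42 and 10.37 against 6.48, 6.35 and 6.48, a rise of 3.94 (SE 0.06). The ceramide synthase Cers3 rose by 2.09, and Alox12b, a lipoxygenase needed for bound lipids of the barrier, by 1.61. The falls were those of Alox12e (-2.51) and of the fatty acid desaturases Fads2 (-0.98) and Fads1 (-0.86). Of 18 genes in the S100 list 7 were higher and 6 lower, the lower ones counting S100pbp, which is not itself an S100 gene. S100b, of Schwann cells and cartilage, fell by 1.04.

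Kallikreins, the serine proteases of desquamation, rose as a neighbourhood. All 10 genes from Klk14 to Klk5 on chromosome 7 were called and at least 2-fold higher, with rises of 1.12 to 5.66, and 19 of 20 kallikreins and epidermal proteases were higher. Klk6 read 12.28, 12.31 and 12.32 against 7.04, 6.08 and 6.83, and Klk13 10.86, 10.79 and 10.77 against 5.57, 5.51 and 5.10. The main proteases of the horny layer moved less, Klk7 by 1.50 and Klk5 by 1.12. Prss27 (marapsin) read 10.92, 10.86 and 10.94 against 6.32, 6.47 and 6.62, a rise of 4.44. Of 23 protease inhibitors 14 were higher and 4 lower. Serpinb3a, an inhibitor of the squamous cell carcinoma antigen group, read 8.18, 8.23 and 8.09 against 3.00, 2.98 and 3.33, a rise of 5.07 from a dim level. The cathepsin inhibitors Stfa3 and Stfa2 rose by 6.15 and 4.96, and the elastase inhibitor Slpi by 3.39. Spink5 (LEKTI), the inhibitor of the kallikreins, rose by 0.71, while Serpina12 fell by 1.54.

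Antimicrobial genes were higher in 21 of 28 cases, with a median of 1.60. Defb4, a beta-defensin, read 9.69, 9.69 and 9.54 against 4.05, 3.70 and 3.74, and Defb3 11.35, 11.52 and 11.41 against 5.56, 5.92 and 5.81. Defb14 rose by 3.42 and Defb1 by 1.32. Lcn2 (lipocalin-2), which withholds iron from bacteria, read 11.29, 11.26 and 11.38 against 6.62, 6.64 and 6.96, a rise of 4.57 (SE 0.14). Saa3, an acute-phase protein, rose by 4.86, and the lactoperoxidase Lpo read 9.44, 9.39 and 9.42 against 4.94, 5.01 and 4.93, a rise of 4.46. The peptidoglycan-binding proteins Pglyrp3 and Pglyrp4 rose by 3.23 and 2.28 and the lectin Reg3g by 1.37. Camp (cathelicidin), at -0.06, was not called.

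Division genes rose together. All 31 measured mitosis and spindle genes were higher, with a median of 1.72, and without vehicle array 2, the lowest in most of them, all 31 were still higher with a median of 1.54. Plk1, a mitotic kinase, read 9.71, 9.62 and 9.68 against 7.22, 6.62 and 6.81, a rise of 2.79 (SE 0.22). Mki67, which encodes the Ki-67 proliferation antigen, read 9.90, 9.99 and 9.94 against 8.59, 7.88 and 8.21, a rise of 1.72. Bub1 rose by 2.16, the motor Kif11 by 2.10 and the activator of the anaphase-promoting complex Cdc20 by 2.01. Top2a rose by 1.98, although its other probe set differed by 0.12. In replication and the G1/S transition 32 of 35 genes were higher and 1, Ccnd2, was lower, with a median of 1.06. The ribonucleotide reductase subunit Rrm2 rose by 2.20, Ccna2 by 2.12 and the repressor E2f8 by 1.85, and all 6 subunits of the replicative helicase from Mcm2 to Mcm7 rose, by 0.90 to 1.64. Cell cycle inhibitors and p53 targets gave 6 higher and 7 lower of 19. The inhibitors Cdkn1c (p57) and Cdkn1b (p27) fell by 1.08 and 0.77, and the p53-inducible Trp53inp1 and Sesn1 fell by 1.51 and 1.07. The higher genes were Gadd45a, Gadd45b, Btg2, Pmaip1, Sesn2 and Phlda3, and the median of the list was -0.03.

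Promoters of 28 mitosis genes were in the RefSeq table. The cell cycle homology motif TTTGAA was present in 9 (32.1%) against 15.7% of all promoters, and CCAAT in 20 (71.4%) against 38.8%, both counted on either strand in the 250 bases before the start. Among 27 replication genes CCAAT was present in 16 (59.3%), and the AP-1 motif of the Sprr promoters was in 0 of the 28 mitosis promoters. The 3 promoters shown hold TTTGAA and were taken by the size of the difference of their genes. They come from GRCm38.p6 chr19:37376333-37376381 (Kif11, plus), chr4:118437344-118437391 (Cdc20, minus) and chr11:99024190-99024242 (Top2a, minus), with that motif in capitals. For Kif11 and Top2a the motif lies on the opposite strand, so its reverse complement TTCAAA is read here.
Kif11: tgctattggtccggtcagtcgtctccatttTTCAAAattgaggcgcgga
Cdc20: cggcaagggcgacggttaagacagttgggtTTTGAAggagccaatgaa
Top2a: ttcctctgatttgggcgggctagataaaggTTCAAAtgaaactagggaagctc
No match in a window says only that these letters are not there.

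Ligands of the EGF receptor family moved both ways. Epgn (epigen), a ligand of the EGF receptor, read 9.49, 9.09 and 9.44 against 5.00, 4.68 and 4.78, a rise of 4.52 (SE 0.12). Hbegf rose by 2.78, Nrg1 (neuregulin-1) by 1.74, Tgfa by 1.57 and Ereg by 1.01, while Btc (betacellulin) fell by 0.71 and Egf by 0.32. The receptor Erbb4 fell by 0.47, while Egfr (0.14) and Erbb2 (0.28) were not called. The list had 7 higher and 5 lower of 18. Lower calls were 3 without the dimmest genes, a filter that can also take members out of the test. Among 24 MAP kinases and their phosphatases 16 were higher and 4 lower. Dusp6, a feedback phosphatase of ERK, read 9.16, 8.53 and 8.98 against 7.54, 7.46 and 7.39, a rise of 1.43, and Dusp5 rose by 1.28, whereas Dusp10, which acts on p38 and JNK, fell by 1.01. Of 25 AP-1 and immediate early genes 16 were higher and 1 lower, with a median of 0.51 and, without imiquimod array 2, of 0.64 with the same counts. Fosl1 (FRA1) read 7.94, 7.53 and 7.82 against 5.27, 5.28 and 6.39, a rise of 2.12, and Fos read 7.73, 6.53 and 7.19 against 5.72, 5.57 and 5.11, a rise of 1.68. Junb rose by 1.00, Jun by 0.31, and Jund at 0.02 was not called.

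Transcription factors of keratinocyte fate were higher in 14 of 34 cases and lower in 10. Several factors of late differentiation rose. Ehf read 10.49, 10.51 and 10.47 against 8.01, 7.53 and 8.07, a rise of 2.62, and Elf3 rose by 1.51, Grhl3 by 1.45, Ovol1 by 1.14, Zfp750 by 1.12 and Prdm1 by 1.02. The master regulator Trp63 (-0.05) was not called. Of Notch pathway genes 4 fell, Dll1 by 1.06, the target Hey1 by 0.80, Jag2 by 0.49 and Notch1 by 0.29, and so did the follicle factor Sox9, by 0.72. Gata3 fell by 0.61, a call lost without imiquimod array 1 or 3 or vehicle array 1 or 3.

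Genes that build ribosomes rose, with 28 of 30 higher and a median of 0.87. Nolc1 rose by 1.22, the helicase Ddx21 by 1.20 and the methyltransferase Nop2 by 1.14. The ribosomal proteins themselves stayed close to their vehicle levels, with 4 of 24 higher, 1 lower and a median of 0.04. The 4 rises of 0.20 to 0.30 (Rpl8, Rps2, Rps3 and Rpsa) were no longer called after cyclic loess or a repeat of quantile normalization, under which 17 and 10 of the 24 were called lower. In the unfolded protein and integrated stress responses 20 of 28 genes were higher. The chaperone Hspa5 (BiP) read 11.07, 11.06 and 11.06 against 10.11, 9.92 and 10.00, a rise of 1.06, and the ATF4 target Asns rose by 1.35, while Ddit3 (CHOP), at -0.06, was not called. Slc7a11, the cystine importer, read 10.62, 10.40 and 10.37 against 4.93, 4.90 and 5.45, a rise of 5.37 (SE 0.17) or 41.3-fold. Of 31 NRF2 targets and redox enzymes 18 were higher and 9 lower. Gsta4, which detoxifies lipid aldehydes, read 10.98, 10.98 and 10.86 against 6.75, 6.74 and 6.55, a rise of 4.26, and Gpx2 rose by 1.55 and Hmox1 by 1.33. The epidermal metallothionein Mt4 read 7.30, 8.34 and 8.46 against 10.12, 9.52 and 10.11, a fall by 1.88.

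Of 27 glycolysis and hypoxia genes 19 were higher and 1, the muscle isoform Pfkm, was lower, with a median of 0.99. The glucose transporter Slc2a1 (GLUT1) read 11.50, 11.45 and 11.34 against 9.55, 9.68 and 9.66, a rise of 1.80 (SE 0.07). The lactate exporter Slc16a3 rose by 2.19, Pgk1 by 2.03, Pgam1 by 1.90, Hif1a by 1.12 and Vegfa by 0.85. Bnip3 (-0.03) and Ndrg1 (0.12), both induced by hypoxia, were not called. Among 33 genes of oxidative phosphorylation 20 were higher and 1 lower, with a median of 0.27. That count was 11 after a repeat of quantile normalization and 12 after cyclic loess. The lower gene was Cox7a1, the muscle isoform of a cytochrome oxidase subunit, at -1.24. In cholesterol and fatty acid synthesis 14 of 22 genes were higher and 2 lower. Imiquimod array 1 was the lowest of its group in 21 of these genes and vehicle array 1 the highest in 18, and without either array 14 were higher still. Sqle (squalene epoxidase) rose by 1.23 and Idi1 by 1.22, and the lipogenic Srebf1 and Scd1 fell by 0.71 and 0.56. Of 16 amino acid transporters 8 were higher and 6 lower, and the lower calls were 3, 2 and 3 without imiquimod array 1, 2 and 3. Slc7a5 (LAT1) rose by 1.82 and Slc6a14 by 1.68, and Slc43a1 fell by 1.38.

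Enzymes that make lipid mediators moved both ways. Alox8, an epidermal lipoxygenase, read 10.91, 10.71 and 10.77 against 6.06, 5.81 and 5.84, a rise of 4.89 (SE 0.08). Ptgs2 (COX-2) read 10.05, 9.58 and 10.49 against 5.64, 5.68 and 5.89, a rise of 4.30, and the terminal prostaglandin E synthase Ptges rose by 1.79. The phospholipase Pla2g4e rose by 3.75. Alox12e fell by 2.51, the prostacyclin synthase Ptgis by 0.82, the cysteinyl leukotriene synthase Ltc4s by 0.69 and the leukotriene-forming lipoxygenase Alox5 by 0.29. No receptor of prostaglandin E2 was called higher, Ptger4 and Ptger3 falling by 0.36 and 0.39. Of the 26 genes in this list 8 were higher and 6 lower, which is 53.8% called against 42.7% of all genes. Of 23 matrix proteases and inhibitors 10 were higher and 4 lower. Timp1, an inhibitor of metalloproteinases, read 9.76, 10.12 and 10.02 against 6.26, 6.51 and 6.26, a rise of 3.62, while Timp3 and Timp2 fell by 1.27 and 1.02. The urokinase receptor Plaur rose by 2.10.

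Gap junction genes held a few large rises. Gjb2 (connexin 26) read 11.59, 11.59 and 11.56 against 6.84, 6.76 and 7.16, a rise of 4.66 (SE 0.11) or 25.3-fold. Gjb6 (connexin 30) rose by 3.74, Gja1 (connexin 43) by 2.01 and the hemichannel Panx1 by 0.65, which made 4 higher of 11 (7 after cyclic loess). That is 36.4% called, all of them higher, against 42.7% of all genes called and 20.4% called higher. Of 17 genes of desmosomes and adherens junctions 9 were higher and 2 lower, and 5 were higher after quantile or cyclic loess normalization. Dsc2 rose by 2.23, Dsg3 by 1.76 and P-cadherin, Cdh3, by 1.62, while Dsg2 fell by 0.75. Tight junction genes gave 3 higher and 8 lower of 18, and the lower calls were 4 without imiquimod array 2 and 5 without vehicle array 1. F11r (JAM-A) rose by 0.86 and Cldn8 and Marveld2 (tricellulin) fell by 0.79 and 0.72, and the barrier claudin Cldn1 (0.03) was not called. Integrins and basement membrane genes were lower in 11 of 23 cases and higher in 5 (3 after quantile or cyclic loess normalization). Tnc (tenascin C) rose by 1.48 and Itga3 by 0.96, whereas Dst fell by 1.16, Lama3 by 0.94, Lama5 by 0.92 and Fn1 by 0.89.

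Most measured genes of dermis, muscle, fat and cartilage fell. The part of a changed share of these tissues in the RNA was not tested. Of 29 fibroblast and collagen genes 25 were lower and 1, Dpp4, was higher, with a median of -0.79. Col1a2 read 9.89, 10.11 and 9.94 against 11.45, 11.87 and 11.40, a fall by 1.59, and Mfap4 and elastin, Eln, fell by 1.78 and 1.46. Pdgfra, a receptor carried by fibroblasts in general, was not called, at -0.14. Extracellular matrix genes Ecm2, Aspn, Omd and Ogn formed a run of 4 neighbours on chromosome 13, each at least 2-fold lower (-1.91 to -1.31). All 28 skeletal muscle genes were lower, with a median of -1.78 (-1.58 without vehicle array 2). The mean over the list was 7.70 to 8.24 on the imiquimod arrays and 9.44 to 10.06 on the vehicle arrays. Pvalb (parvalbumin), of fast fibres, read 7.58, 7.76 and 6.95 against 10.08, 10.56 and 9.65, a fall by 2.67. Myh4 fell by 2.37, Casq1 by 2.33 and Actn3 by 2.12, and Myh3, Myh2, Myh1 and Myh4 formed a run of at least 2-fold falls on chromosome 11. Imiquimod array 2 was the highest of its group in 26 and array 3 the lowest in 27 of the 28 muscle genes.

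Adipocyte genes were lower in 13 of 17 cases, with a median of -0.92 (13 and -0.73 without vehicle array 2). Retn (resistin) fell by 1.70, leptin, Lep, by 1.25 and Adipoq by 1.13. Of 22 cartilage genes 18 were lower and 1, the lubricin gene Prg4, was higher. Ucma read 6.94, 7.02 and 7.08 against 9.30, 9.48 and 8.69, a fall by 2.14. Melanocyte and Schwann cell genes were lower in 12 of 18 cases, with Pmp22 at -1.04 and Mlana at -0.77. Endothelial markers were lower in 9 of 18 cases and higher in 2. Vehicle array 2 was the highest of its group in 16 of them and vehicle array 1 the lowest in 16, and the lower calls were 8 and 9 without these arrays, 6 without imiquimod array 1 and 6 after cyclic loess. Among the falls were the angiopoietin receptor Tek (-0.99) and Vwf (-0.63), while Pecam1 (-0.19) and Cdh5 (-0.14) were not called. Of genes of vascular activation 4 were higher and 4 lower of 21, which is 38.1% called against 42.7% of all genes. Icam1, the ligand of leukocyte integrins, rose by 0.62, and E-selectin, Sele (0.25), and Vcam1 (-0.14) were not called.

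Hair follicle and sebaceous genes varied between arrays of a group. Of 37 follicle genes 14 were lower and 3 higher, which is 45.9% called against 42.7% of all genes. The lower calls were 6 without imiquimod array 1 or 2 and 8 without vehicle array 3. Krt25, of the inner root sheath, read 5.57, 5.94 and 6.73 against 6.78, 6.93 and 7.35, a fall by 0.94 that was not called without imiquimod array 1 or 2 or vehicle array 3. Cd34, of follicle stem cells and vessels, fell by 1.11, Lgr6 by 0.88 and Lgr5 by 0.66. Foxn1 rose by 0.93. Sebaceous genes split, with 5 of 17 higher and 4 lower, which is 52.9% called against 42.7% of all genes. Dgat2l6 read 8.43, 8.66 and 9.19 against 6.14, 4.84 and 6.08, a rise of 3.07, and the wax synthase Awat1 rose by 1.97 and the elongase Elovl3 by 1.93, while Mc5r, a melanocortin receptor of the gland, fell by 0.97.

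Circadian clock genes were lower in 10 of 16 cases and higher in 2. Of the core clock Nr1d1 fell by 0.94, Arntl by 0.82 and Per2 by 0.60. Hlf read 7.51, 7.73 and 8.23 against 9.95, 9.63 and 9.84, a fall by 1.98, and Bhlhe41, Per3 and Tef fell by 1.18, 1.06 and 1.04. Nfil3, a repressor of that same binding site, rose by 1.17. The hour at which the ears were taken is not in the labels. Of 35 genes of the Wnt, BMP and TGF-beta pathways 17 were lower and 4 higher (2 without imiquimod array 3). Wif1, a secreted Wnt inhibitor, read 8.51, 8.59 and 8.47 against 10.27, 10.63 and 10.45, a fall by 1.93, and the ligands Tgfb3, Tgfb2 and Bmp4 fell by 1.56, 1.22 and 1.20, while Tgfb1 rose by 0.80.

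Cytochrome P450 and retinoid genes were higher in 9 of 28 cases and lower in 9. Dhrs9, a retinol dehydrogenase, read 8.43, 8.58 and 8.54 against 5.29, 5.01 and 5.69, a rise of 3.19, and the retinoic acid binding protein Crabp2 rose by 1.86. Cyp2g1 read 5.37, 6.50 and 6.36 against 9.60, 9.10 and 8.04, a fall by 2.84 with an SE of 0.57, and Cyp26a1, which clears retinoic acid, fell by 1.58. Of 17 genes of gasdermins and cell death 13 were higher. Gsdmc, a pore-forming gasdermin, read 8.78, 8.99 and 8.78 against 5.11, 4.83 and 5.08, a rise of 3.85, and Gsdma rose by 2.10. The necroptosis pair Ripk3 and Mlkl rose by 1.52 and 1.19. Genes often used as references were not level. Of 16, 9 were higher, with Pgk1 at 2.03, Tubb5 at 0.96 and Hprt at 0.93, while Tbp (0.08), Polr2a (0.17) and Eef1a1 (0.02) were not called. Medians of the S100, ribosomal protein, p53, dendritic, T and NK, B cell, eosinophil, interferon gene, sebaceous, vascular activation and P450 lists lay close enough to 0 to change sign under at least 1 scaling or omission.

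Of 300 microRNA genes measured, 1 was higher and 65 were lower, a share of 21.7% that lies near the 22.4% of all genes. The count of lower genes was 42 without imiquimod array 2, 40 without imiquimod array 3 and 111 when arrays were centred on genes of stable rank. These probe sets lie in hairpin genes, and the array does not separate the mature microRNA from its precursor or host transcript. The mature strands below, from RefSeq (GRCm38.p6), belong to genes chosen after their values were seen, as those with the largest falls and those that share a seed, plus the 1 rise. The seed, bases 2 to 8, is in capitals.
miR-365-3p (Mir365-1, chr16:13453895-13453916, plus): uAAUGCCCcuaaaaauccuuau
miR-99a-5p (Mir99a, chr16:77598940-77598961, plus): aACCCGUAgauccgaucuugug
miR-100-5p (Mir100, chr9:41531437-41531458, plus): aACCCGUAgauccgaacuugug
miR-99b-5p (Mir99b, chr17:17830194-17830215, plus): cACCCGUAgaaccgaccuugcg
miR-181b-5p (Mir181b-1, chr1:137966650-137966673, plus): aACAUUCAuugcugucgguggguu
miR-181c-5p (Mir181c, chr8:84178924-84178945, minus): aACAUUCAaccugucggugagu
let-7c-5p (Mirlet7c-1, chr16:77599672-77599693, plus): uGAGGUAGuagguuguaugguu
let-7d-5p (Mirlet7d, chr13:48536078-48536099, minus): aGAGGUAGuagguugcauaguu
miR-15a-5p (Mir15a, chr14:61632075-61632096, minus): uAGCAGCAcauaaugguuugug
miR-195a-5p (Mir195a, chr11:70235062-70235082, plus): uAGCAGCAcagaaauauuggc
miR-203-3p (Mir203, chr12:112130927-112130948, plus): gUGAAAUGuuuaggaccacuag
Mir365-1 read 5.40, 5.87 and 5.53 against 7.48, 7.15 and 7.51, a fall by 1.78 (SE 0.13). Mir99a, with the seed that it shares with Mir100 and Mir99b, fell by 1.58, and the other two by 0.61 and 0.43. Mir181b-1 read 5.30, 5.57 and 5.47 against 7.10, 7.06 and 6.85, a fall by 1.56. The 4 called genes with its seed are Mir181a-1, Mir181a-2, Mir181b-1 and Mir181c. With 65 lower and 1 higher among the called microRNA genes, called genes that share a seed could hardly be other than lower. Genes with a seed that were not called were not counted. Mirlet7c-1, a neighbour of Mir99a on chromosome 16, fell by 1.18 and Mirlet7d by 0.79. Mir15a and Mir195a, 2 of 4 called genes with the seed AGCAGCA, fell by 0.97 and 0.43. Mir203, an epidermal microRNA of differentiating keratinocytes, read 5.26, 5.34 and 5.34 against 4.95, 4.89 and 5.07 and was the called rise, at 0.35. Of 51 small nucleolar RNA genes 9 were higher and 17 lower (33.3%), and the lower calls were 11 without imiquimod array 3.

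Set against ears treated with anisomycin, an inhibitor of protein synthesis that activates stress kinases, 4059 of 19938 genes differed (20.4%), with 1912 higher and 2147 lower in imiquimod ears. This comparison shares the imiquimod arrays with the one above. Leaving out any 1 imiquimod array gave 2523 to 2563 genes, leaving out anisomycin array 1 or 2 gave 2589 and 2548, and array weights gave 8557. Alox8 lay 4.46 above anisomycin, Lpo 3.60, Sprr2b 3.47, the urate oxidase Uox 3.34, the aldehyde oxidase Aox4 3.03, Defb3 2.67, Il1f6 2.58 and Defb6 2.48, where their differences from vehicle were 4.89, 4.46, 5.53, 3.56, 3.91, 5.66, 3.78 and 2.28. On the other side the differences from anisomycin were -4.48 for Tmprss11b, -4.29 for the collagenase Mmp13, -3.61 for Ifi202b, -3.58 for Il24, -3.25 for the platelet chemokine Ppbp, -3.21 for Psca, -3.15 for the retinaldehyde dehydrogenase Aldh1a3 and -3.01 for Elf3. These 8 genes were also called higher than vehicle, by 0.59 to 1.54. In the IL-23 and IL-17 axis Il17f (0.81), Il17c (0.67), Il12b (0.63) and Ccl20 (1.90) were higher with imiquimod than with anisomycin, and so were Il19 (1.04) and Il20 (0.39), while Il23a (-0.97) was lower. Anisomycin array 1 was the lowest of its group in the mean of 3 lists named next, at 6.92 against 7.40 and 7.64 for mitosis, 9.21 against 9.35 and 9.39 for oxidative phosphorylation, and 8.92 against 9.29 and 9.51 for cholesterol and fatty acid synthesis. Its part in these counts was not tested. Of mitosis genes 26 of 31 were higher than with anisomycin, as were 19 of 33 genes of oxidative phosphorylation and 16 of 22 of cholesterol and fatty acid synthesis. Surface Toll-like and lectin receptors were lower in 12 of 18 cases and higher in 0. Lower too were 13 of 17 neutrophil chemoattractant genes (0 higher) and 14 of 25 AP-1 and immediate early genes (1 higher). The same held for 12 of 21 vascular activation genes (0 higher), 12 of 23 matrix proteases and inhibitors (3 higher) and 11 of 21 gp130 genes (0 higher). Interferon-stimulated genes such as Ifit1 (0.14, adjusted p = 0.834) and Oasl2 (-0.09, adjusted p = 0.866) were not called between the treatments.

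Genes that stood in no list were also named after their values were seen. Slfn4, a Schlafen gene of myeloid cells, read 8.62, 8.35 and 9.59 against 5.26, 5.09 and 4.86, a rise of 3.79 that was, like the interferon-stimulated genes, highest on imiquimod array 3. Acod1 (Irg1), which makes itaconate in activated macrophages, read 8.82, 8.71 and 9.59 against 5.37, 5.18 and 5.34, a rise of 3.74. The chemokine receptor Ccr1 rose by 3.69 from a dim level. Chil1, the mouse gene for YKL-40, read 12.16, 12.17 and 12.22 against 8.53, 8.61 and 8.47, a rise of 3.65 (SE 0.10). Rbp2, a retinol carrier, rose by 3.42, the hyaluronan synthase Has3 by 3.39 and Fabp5, the epidermal fatty acid binding protein, by 2.78.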

How the data were processed

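The deposited values are log2 expression values, made by the authors with RMA, which corrects background, normalizes by quantiles and summarises probes, per the submitters' processing notes, whose version the sources used here do not give. Of 35556 rows, 21789 carried 1 gene symbol, 1621 several and 12146 none. Rows with 1 symbol were kept, the brightest over 9 arrays for each of 999 genes with several, which left 19938 genes. In 16 of those 999 genes, probe sets were called in opposite directions between imiquimod and vehicle. In limma 3.58.1 (R 4.3.3) the means of 3 groups were fitted over all 9 arrays with no covariate, imiquimod was compared with vehicle and with anisomycin, and p-values were adjusted over all genes by the Benjamini-Hochberg method, with calls at 0.05. The scripts were tested on simulated data. The number of arrays limits the precision.

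Genes were compared in 68 lists, with 1478 of 1622 memberships measured. The members and lists were chosen with earlier results of these data known. Genes were named as the 15 largest called rises and falls whose arrays did not overlap (leaving out predicted loci, receptor segments and small RNAs), up to 6 called genes per list, a set of genes always named, the 8 genes most above and below anisomycin, and runs of at least 4 neighbouring genes with at least 2-fold changes. Any other gene named was chosen after its values were seen. Alternatives covered the variance prior, filters, scaling, probe set choice, array weights, a replicate block and leaving out each array. Rows with several or no symbols were left out of the gene tests.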

Additional observations from a re-analysis of the deposited data

Results flagged for a closer look

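Probe sets that carry no gene symbol, and so entered no comparison above, also differed between imiquimod and vehicle ears. In a limma fit of all rows, 2536 of 12146 of them were called, and of 1621 probe sets with several symbols 483 were called. Together these are 3019 of 13767 probe sets (21.9%). What these probe sets measure was not analysed here.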

How the results depend on the processing

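The comparison with vehicle gave 8519 genes, and 1369 when a 2-fold change was also asked for. Leaving out 1 array gave 7265 to 8611 against vehicle and 2523 to 4766 against anisomycin, where the main count was 4059. Array weights gave 8557 against anisomycin. Centring on genes of stable rank gave 9649 against vehicle. With a replicate block the counts were 8280 and 3734. Deviations of imiquimod and vehicle arrays with the same number correlated at -0.0877, -0.0176 and 0.193, so the numbers were not taken to pair samples. Of 397 named genes 388 were called, 367 of them in every setting run and 21 lost in at least 1, and 3 changed sign. These were Rpl8 (-0.0349), Rps2 (-0.203) and Rps3 (-0.102) after cyclic loess, and -0.0544, -0.00984 and -0.108 in the same order after repeated quantile normalization. The cause was not tested. Without the dimmest 30% of genes, T and NK cell markers gave 2 higher calls in place of 6 and the TNF superfamily 1 lower in place of 4. That filter takes dim members out of the test, so a smaller count need not mean lost calls. Gzma and Gzmb, for example, were left out by it and kept their calls in every setting that tested them. Type 2 cytokine genes gave 5 higher in place of 3 after 3 of the scalings. After cyclic loess microRNA genes gave 9 higher in place of 1, and cornified envelope and cholesterol genes 4 lower in place of 2. Dim genes lie near the floor of the array, which limits the size of a measured fall or rise there.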
